A study of Homo sapiens with 14 samples.

Results

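The 246 genes described here were the protein-coding genes of chromosome 19 in GENCODE release 44 whose names are ZNF followed by a number, taken from 1476 protein-coding genes of that chromosome. They comprised 240 genes named with digits alone and 6 named with a final letter (ZNF585A, ZNF585B, ZNF780A, ZNF780B, ZNF587B and ZNF324B). They were compared with the 1227 other protein-coding genes of the chromosome. The 3 read-through genes that join a ZNF gene to its neighbour were placed in neither set.

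Chromatin accessibility was profiled by Omni-ATAC, in which a transposase cuts and tags open DNA, in 14 libraries of MM.1S and RPMI8226, both established human multiple myeloma (MM) cell lines. The cells were grown for 48 h alone (MONO), in the upper transwell above HS5 cells (TSW), or in the lower chamber with HS5 cells (CO), HS5 being a human bone marrow stromal line. MM.1S had 3 MONO, 3 TSW and 3 CO libraries, and RPMI8226 had 1 MONO, 2 TSW and 2 CO libraries. Cocultured MM cells were sorted as CD90-CD38+. The data were 1 list of reference peaks for each line, in which a peak had to be present in at least 3 libraries whatever the culture condition. MM.1S had 72802 peaks, of which 2945 lay on chromosome 19, and RPMI8226 had 79969, of which 2783 lay on that chromosome. Each peak carries 1 whole number, from 3 to 9 in MM.1S and from 3 to 5 in RPMI8226, which was read as the number of libraries in which the peak was called and is named library support here. No list gives read counts or a value for a single library, so depth cannot be read from the lists and no comparison of MONO, TSW and CO could be made. The study's supplement tabulates read totals for each library, which were not used as data here. With 1 list a line and genes that are not replicates, no test was run. Intervals are 95% intervals that cover counting error over genes or peaks only.

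ZNF proteins bind DNA through tandem C2H2 zinc fingers, each a short fold held by a zinc ion. Most of those encoded on chromosome 19 also carry a KRAB domain, which recruits the corepressor TRIM28 (KAP1) and through it the histone methyltransferase SETDB1. This family is best known for silencing retrotransposons, and it grew by tandem duplication, which left its genes in clusters along the chromosome.

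A promoter peak was a reference peak that overlapped the 2500 bp on either side of any annotated start site of a gene. To show what the members' promoters look like, the 200 bases upstream of the canonical start site were read from the hg38 sequence for 7 genes of a list with roles known from textbooks. They were picked to span the outcomes: ZNF154, ZNF382 and ZNF677 had no promoter peak in either line, ZNF568 and ZNF331 had one in RPMI8226 only, and ZNF91 and ZNF274 had one in both lines. Sequences run 5′ to 3′ on the strand of the gene, with CpG dinucleotides in capitals.
ZNF154, chr19:57709205-57709404, minus strand: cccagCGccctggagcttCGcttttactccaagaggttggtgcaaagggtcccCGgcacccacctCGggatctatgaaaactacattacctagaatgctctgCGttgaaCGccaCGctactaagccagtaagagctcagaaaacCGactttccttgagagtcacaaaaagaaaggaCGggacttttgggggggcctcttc
ZNF382, chr19:36605113-36605312, plus strand: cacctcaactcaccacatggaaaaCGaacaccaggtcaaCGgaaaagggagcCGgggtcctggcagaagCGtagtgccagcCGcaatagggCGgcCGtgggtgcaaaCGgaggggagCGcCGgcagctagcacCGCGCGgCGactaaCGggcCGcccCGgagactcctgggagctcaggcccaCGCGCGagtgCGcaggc
ZNF677, chr19:53254874-53255073, minus strand: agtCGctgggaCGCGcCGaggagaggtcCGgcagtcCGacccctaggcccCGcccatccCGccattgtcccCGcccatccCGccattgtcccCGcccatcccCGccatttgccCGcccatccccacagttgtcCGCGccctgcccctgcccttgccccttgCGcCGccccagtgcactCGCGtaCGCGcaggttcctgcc
ZNF568, chr19:36916132-36916331, plus strand: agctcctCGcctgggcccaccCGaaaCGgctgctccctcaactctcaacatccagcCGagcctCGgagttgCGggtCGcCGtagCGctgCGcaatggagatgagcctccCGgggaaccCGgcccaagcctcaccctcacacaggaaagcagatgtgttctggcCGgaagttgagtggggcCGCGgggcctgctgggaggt
ZNF331, chr19:53537945-53538144, plus strand: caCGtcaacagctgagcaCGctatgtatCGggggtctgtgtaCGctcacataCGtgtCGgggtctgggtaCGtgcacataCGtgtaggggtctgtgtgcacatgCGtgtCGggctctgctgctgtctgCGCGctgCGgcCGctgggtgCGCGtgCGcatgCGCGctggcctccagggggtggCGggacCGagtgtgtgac
ZNF91, chr19:23395472-23395671, minus strand: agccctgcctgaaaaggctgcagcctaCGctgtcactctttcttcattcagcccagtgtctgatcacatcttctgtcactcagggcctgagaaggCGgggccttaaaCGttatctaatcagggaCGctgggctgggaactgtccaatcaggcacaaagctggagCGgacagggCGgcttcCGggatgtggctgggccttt
ZNF274, chr19:58182861-58183060, plus strand: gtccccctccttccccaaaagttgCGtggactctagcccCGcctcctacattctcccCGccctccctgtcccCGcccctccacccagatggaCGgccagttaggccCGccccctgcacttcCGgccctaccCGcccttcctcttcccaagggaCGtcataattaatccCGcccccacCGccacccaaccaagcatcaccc

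The stretches of ZNF382, ZNF677 and ZNF154, which no peak of either list covered, held 21, 21 and 9 CpG dinucleotides. Those of ZNF331 and ZNF568, covered in full by a RPMI8226 peak and by no MM.1S peak, held 21 and 15. Those of ZNF91 and ZNF274, covered in full in both lines, held 7 and 11. The 7 stretches were picked by outcome, and their counts overlapped between genes with and without a peak. Over the 216 members with a RefSeq promoter, the median count in such a stretch was 13 (quartiles 10 to 18) with a peak in both lines. It was 14 (8.5 to 17) in MM.1S only, 15 (10.5 to 18) in RPMI8226 only and 12 (9 to 18) in neither.

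In the MM.1S list, a promoter peak was present for 180 of 246 ZNF genes, or 73.2% (67.3 to 78.3), beside 950 of 1227 other chromosome 19 genes, or 77.4% (75 to 79.7). The share over all 20046 protein-coding genes was 76.8%. In RPMI8226, 199 of 246 ZNF genes had one, or 80.9% (75.5 to 85.3), beside 926 of 1227 other genes, or 75.5% (73.0 to 77.8), and 71.8% over all protein-coding genes. The share of ZNF genes minus that of other genes was -4.25 percentage points in MM.1S (-10.5 to 1.44) and 5.43 in RPMI8226 (-0.429 to 10.5). Both intervals include 0, so at this window and over all annotated start sites neither list separated the ZNF genes from their neighbours by this share alone.

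The comparison turned on the window. Widening it from 500 to 5000 bp took the ZNF genes with a peak from 179 to 181 in MM.1S and from 197 to 201 in RPMI8226. The same change took the other genes from 829 to 1022 in MM.1S and from 798 to 1005 in RPMI8226. At 500 bp the ZNF share was above that of other genes in both lines, by 5.20 percentage points in MM.1S (-1.21 to 11.03), an interval that includes 0, and by 15.04 in RPMI8226 (9.01 to 20.3). A peak lay over the canonical start site itself in 169 of 246 ZNF genes in MM.1S (68.7%, 62.7 to 74.2), against 54.7% of other genes (51.9 to 57.5). In RPMI8226 it did so in 186 ZNF genes (75.6%, 69.9 to 80.6), against 49.9% of other genes (47.1 to 52.7).

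**Figure D1:**
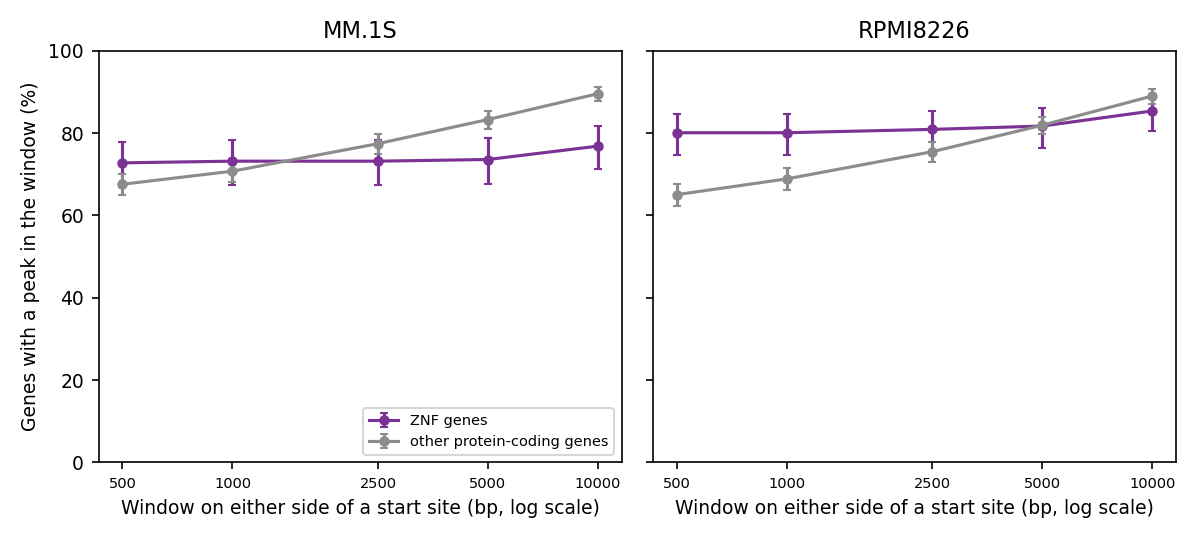
Share of genes with a reference peak (%) against the window on either side of a start site (bp, log scale) in MM.1S and RPMI8226, with 95% Wilson intervals. The 246 ZNF genes stay between 72.8% and 73.6% from 500 to 5000 bp in MM.1S and between 80.1% and 81.7% in RPMI8226, while the 1227 other genes climb from 67.6% to 83.3% and from 65.0% to 81.9%.

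The promoter peaks of ZNF genes were single and centred. Of the ZNF genes with a promoter peak, 159 of 180 had exactly 1 in MM.1S (88.3%, 82.8 to 92.2) against 505 of 950 other genes (53.2%, 50.0 to 56.3). In RPMI8226 the counts were 160 of 199 (80.4%, 74.3 to 85.3) and 512 of 926 (55.3%, 52.1 to 58.5). The middle of a ZNF promoter peak lay a median of 68.5 bp (57 to 86.5) from the nearest start site in MM.1S, against 218 bp (201 to 253) for other genes. In RPMI8226 the medians were 73 bp (58.5 to 88.5) and 214 bp (191 to 246). Both sets had a median of 5 annotated start sites a gene. The highest number of promoter peaks was 4, in ZNF575 and ZNF580 in MM.1S and in ZNF580 in RPMI8226. A promoter peak served more than 1 member in 11 of 197 cases in MM.1S and 14 of 230 in RPMI8226, so these members share a measurement.

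Outside the promoter windows, peaks within ZNF genes were few. In MM.1S, 18 of 246 ZNF genes (7.32%, 4.68 to 11.3) held a peak in the gene away from every promoter window, against 345 of 1227 other genes (28.1%, 25.7 to 30.7). In RPMI8226, 17 ZNF genes (6.91%, 4.36 to 10.8) and 292 other genes (23.8%, 21.5 to 26.3) did. The median ZNF gene spanned 25.9 kb and the median other gene 13.8 kb. The last exon, which holds the zinc finger array in most of these genes, had a peak outside the promoter windows in 1 ZNF gene in MM.1S (ZNF574) and in 0 of 246 in RPMI8226, which allows a share of up to 1.54%. Among other genes, whose last exons were shorter (median 732 bp against 3376.5 bp), the counts were 70 and 44 of 1227. Reads mapping to several places were left out by the authors, and a median of 90.4% of the 36-base words of a ZNF last exon were unique in hg38, against 100% in other genes. The part of that difference in these counts was not tested.

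Where a ZNF gene had a promoter peak, it was in most cases called in every library. In MM.1S, 166 of the 180 genes reached a library support of 9 (92.2%, 87.4 to 95.3), against 808 of 950 other genes (85.1%, 82.6 to 87.2). Over all protein-coding genes with a promoter peak the share was 90.2%, close to that of the ZNF genes. Counted over genes with or without a peak, it was 67.5% of ZNF genes and 69.2% of all protein-coding genes. The 14 members below 9 in MM.1S were spread from 3 to 8. ZNF254, ZNF114 and ZNF845 had 3, ZNF626 had 4, ZNF433 had 5, ZNF480 had 6, and 8 genes had 8, among them ZNF43, ZNF208 and ZNF257 of the cluster near 22 Mb. In RPMI8226, 190 of 199 ZNF genes reached a support of 5 (95.5%, 91.6 to 97.6), against 848 of 926 other genes (91.6%, 89.6 to 93.2) and 92.7% of all protein-coding genes with a peak. Counted with or without a peak, it was 77.2% of ZNF genes and 66.5% of all protein-coding genes. The 9 below it were ZNF536, ZNF649, ZNF615 and ZNF329 at 4 and ZNF793, ZNF283, ZNF347, ZNF665 and ZNF671 at 3. The difference between ZNF and other genes was 7.17 percentage points in MM.1S (1.87 to 11.1) and 3.90 in RPMI8226 (-0.275 to 6.80), and only the first of these intervals lies above 0. Since a peak needed 3 of 9 libraries in one line and 3 of 5 in the other, the 2 scales of support are not alike.

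**Figure D2:**
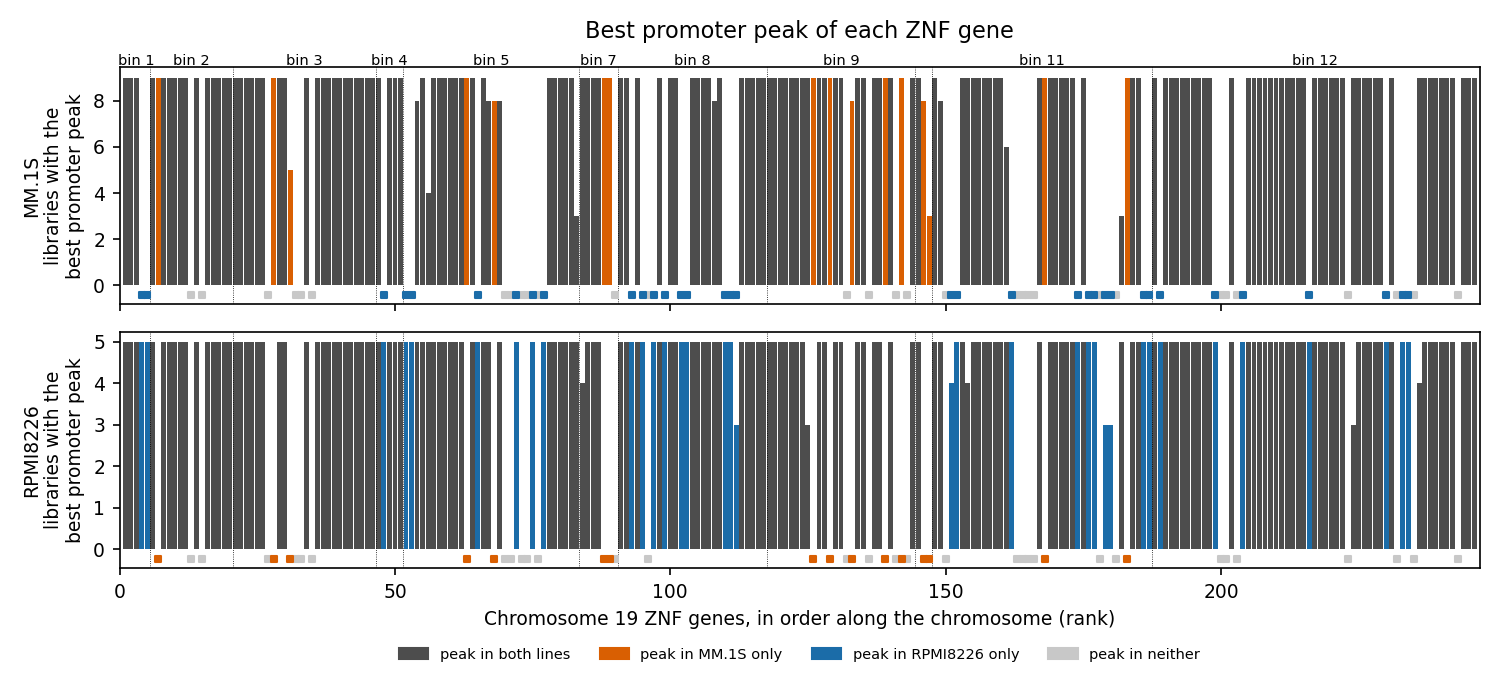
Library support of the best promoter peak (number of libraries, 0 where none) of each of the 246 ZNF genes, in order along chromosome 19, in MM.1S (top, highest 9) and RPMI8226 (bottom, highest 5). Coloured marks under the axis show genes without a peak in that line. Most bars stand at the highest value (166 genes in MM.1S and 190 in RPMI8226), and blue bars, for genes with a peak in RPMI8226 only, outnumber orange bars, for MM.1S only, by 35 to 16.

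By line, 164 ZNF genes had a promoter peak in both lists (66.7%, 60.6 to 72.3), 16 in MM.1S only (6.50%, 4.04 to 10.3), 35 in RPMI8226 only (14.2%, 10.4 to 19.1) and 31 in neither (12.6%, 9.02 to 17.3). Over all protein-coding genes these shares were 68.6%, 8.18%, 3.21% and 20%. Over the other chromosome 19 genes they were 70.9%, 6.52%, 4.56% and 18.0%. The share with a peak in RPMI8226 only was thus 14.2% in ZNF genes (10.4 to 19.1) against 4.56% in other genes of the same chromosome (3.53 to 5.88), and these intervals do not overlap. Of the genes with a peak in 1 line only, RPMI8226 was that line for 35 of 51 ZNF genes (68.6%, 55.0 to 79.7) and for 56 of 136 other genes (41.2%, 33.3 to 49.6). Each line is represented by 1 list, so a property of the line and a property of its libraries, such as their number or depth, cannot be told apart.

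Most line-limited ZNF promoters were called in every library of their line, though less often than over all ZNF genes with a peak (95.5% in RPMI8226 and 92.2% in MM.1S). Of the 35 genes with a peak in RPMI8226 only, 31 had it in all 5 libraries (88.6%, 74.0 to 95.5), against 36 of 56 other genes (64.3%, 51.2 to 75.5). Of the 16 with a peak in MM.1S only, 11 had it in all 9 libraries (68.8%, 44.4 to 85.8), against 21 of 80 other genes (26.3%, 17.9 to 36.8). The widest peak of the RPMI8226-only ZNF genes had a median of 613 bp (533 to 673), with a range from 146 bp in ZNF665 to 1440 bp in ZNF566. That of the MM.1S-only ZNF genes had a median of 662.5 bp (535 to 802), with a range from 242 bp in ZNF114 to 1018 bp in ZNF69. For the 164 genes with a peak in both lines, the medians were 701 bp in RPMI8226 and 862.5 bp in MM.1S.

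Members with known roles fell in every class. Of a list of 29 such members, 17 had a promoter peak in both lines, 5 in RPMI8226 only, 1 in MM.1S only and 6 in neither. In the same order, the shares over all 246 ZNF genes were 66.7%, 14.2%, 6.50% and 12.6%. Over all protein-coding genes they were 68.6%, 3.21%, 8.18% and 20%. The spread over classes is thus not particular to this list. ZNF91 and ZNF93, which silence SVA and L1 retrotransposons, had a peak in both. The ZNF91 peak was called in 9 of 9 MM.1S libraries over 617 bp and in 5 of 5 RPMI8226 libraries over 589 bp. For ZNF93 the peak was called in every library of both lines, over 924 bp in MM.1S and 792 bp in RPMI8226. The promoters of both repressors were thus called accessible in all 14 libraries. ZNF274, which binds the 3′ ends of other ZNF genes and recruits SETDB1 there, had its widest peak over 1206 bp in MM.1S and 1139 bp in RPMI8226. In each line at least 1 of its promoter peaks had the highest support. ZNF808, needed for development of the pancreas, had 931 bp and 788 bp at the highest support. ZNF473, a component of the machinery that processes histone messenger RNA, had 1244 bp and 1281 bp.

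ZNF331, an imprinted gene, had no promoter peak in MM.1S and a peak of 1255 bp called in 5 of 5 RPMI8226 libraries, at chr19:53537457-53538711, over its canonical start site. ZNF568, whose mouse counterpart represses a placental transcript of Igf2, had no promoter peak in MM.1S and a peak of 533 bp called in 5 of 5 RPMI8226 libraries, at chr19:36916038-36916570. The other members of this list with a peak in RPMI8226 only were ZNF90 with 610 bp, ZNF667 with a widest peak of 996 bp and ZNF264 with 507 bp. Each had a promoter peak called in 5 of 5 libraries. In the opposite direction stood ZNF208, which with 36 zinc finger matches had the most of any member. Its peak was called in 8 of 9 MM.1S libraries over 541 bp and was absent from the RPMI8226 list, and 69.7% of the 36-base words around its start site were unique in hg38.

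The 6 listed members without a promoter peak in either line were ZNF382, ZNF677, ZNF471, ZNF154, ZNF135 and ZNF132. They sat in CpG-rich sequence, with a CpG observed-over-expected ratio in the 1000 bp around the canonical start site from 0.711 in ZNF132 to 0.906 in ZNF677. Every 36-base word in the same 1000 bp was unique in hg38 for all 6. Over the 17 listed members with a peak in both lines the ratio ran from 0.464 in ZNF675 to 0.903 in ZNF582, with a median of 0.718, against a median of 0.770 for the 6, and the ranges overlap. The remaining genes without a peak in either list included ZNF177, ZNF439, ZNF844, ZNF676, ZNF99, ZNF792, ZNF223, ZNF112, ZNF577, ZNF528, ZNF578, ZNF835 and ZNF418. A gene without a peak is one whose promoter was not called in 3 libraries, and a peak called in fewer cannot be seen in these lists.

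Over all members, the CpG content of the start site did not order the classes. The median CpG ratio was 0.707 (0.674 to 0.725) for ZNF genes with a peak in both lines, 0.670 (0.532 to 0.764) in MM.1S only, 0.735 (0.693 to 0.770) in RPMI8226 only and 0.697 (0.628 to 0.753) in neither. For other genes the medians in the same order were 0.727 (0.713 to 0.739), 0.409 (0.344 to 0.543), 0.381 (0.299 to 0.485) and 0.313 (0.285 to 0.333). Calling a start site CpG-rich above a ratio of 0.6, 26 of 31 ZNF genes without a peak in either line were CpG-rich (83.9%, 67.4 to 92.9), against 29 of 221 such other genes (13.1%, 9.29 to 18.2).

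Within CpG-rich start sites the ZNF genes had a promoter peak less often in both lists. The counts were 137 of 194 ZNF genes in MM.1S (70.6%, 63.9 to 76.6) against 652 of 696 other genes (93.7%, 91.6 to 95.3). In RPMI8226 they were 158 of 194 (81.4%, 75.4 to 86.3) against 647 of 696 (93.0%, 90.8 to 94.6). Within CpG-poor start sites the order was the opposite. In MM.1S 43 of 52 ZNF genes (82.7%, 70.3 to 90.6) and 298 of 531 other genes (56.1%, 51.9 to 60.3) had a peak, and in RPMI8226 41 of 52 (78.8%, 66.0 to 87.8) and 279 of 531 (52.5%, 48.3 to 56.8) did. This split was chosen after the shares had been seen. Many of the 52 CpG-poor ZNF genes lie in the cluster at 20 to 25 Mb, whose 32 members had a median ratio of 0.512. That cluster thus weighs heavily in the comparison of CpG-poor start sites. Members with any repeated 36-base word around the start site did not have a promoter peak less often than the rest. ZNF genes with every 36-base word unique had a peak in 78 of 111 cases in MM.1S (70.3%, 61.2 to 78.0) and 89 of 111 in RPMI8226 (80.2%, 71.8 to 86.5), and those with some repeated words in 102 of 135 (75.6%, 67.7 to 82.0) and 110 of 135 (81.5%, 74.1 to 87.1). This split is coarse, as the median member had 99.8% of its words unique, so it cannot show what goes with heavier repeats. Among other genes it went the opposite way. Those with every word unique had a peak in 84.0% of cases in MM.1S, against 69.5% with repeated words. In RPMI8226 the shares were 83.2% and 66.1%.

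**Figure D3:**
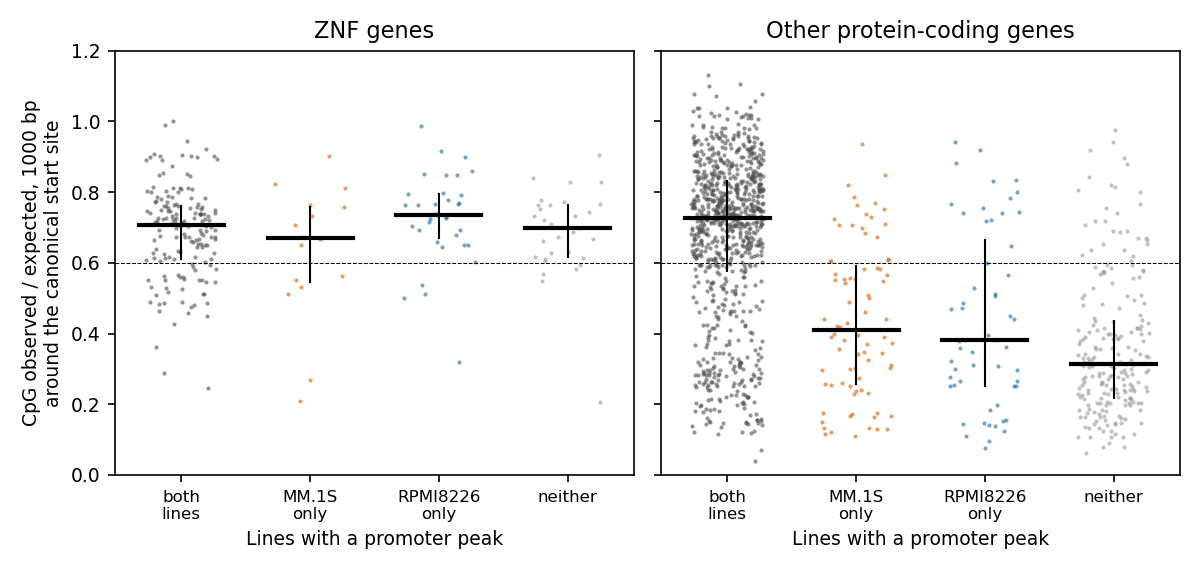
CpG observed-over-expected ratio in the 1000 bp around the canonical start site, by the lines in which a gene had a promoter peak, for ZNF genes (left) and other protein-coding genes of chromosome 19 (right). Each point is 1 gene, horizontal bars are medians, vertical bars the quartiles and the dashed line the limit of 0.6. The ZNF medians lie between 0.670 and 0.735 in all 4 classes, while those of other genes drop from 0.727 with a peak in both lines to 0.313 with none.

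Short words bound by common promoter factors were counted in the RefSeq promoters (GRCh38.p14, 250 bases before to 50 after the start), which matched 216 of 246 members. The 7 words were searched on both strands, and none contains another. Members and other chromosome 19 genes gave 1 promoter each. The set of all RefSeq promoters was not limited to 1 for a gene or to protein-coding genes. The ETS word CCGGAAGT was in 45 of 216 ZNF promoters (20.8%), against 4.53% of 949 other chromosome 19 promoters and 4.14% of all 35116 RefSeq promoters. It was in 32 of 149 ZNF promoters with a peak in both lines, 8 of 31 in RPMI8226 only, 1 of 11 in MM.1S only and 4 of 25 in neither. CCAAT was in 116 of 216 ZNF promoters (53.7%), against 37.5% of other chromosome 19 promoters and 34.6% of all. The GC box word GGGCGG was in 67.6%, close to the 66.5% of other chromosome 19 promoters, and in 45.0% of all. The words for YY1 (AAGATGGC, 6.48%), NRF1 (GCATGCGC, 4.17%) and CRE (TGACGTCA, 3.24%) and CTCGCGAG (0.926%) were each in fewer than 15 of the 216. In other chromosome 19 promoters the shares of these 4 were 5.69%, 5.16%, 3.48% and 1.054%, with intervals that overlap those of the ZNF promoters. In all promoters together they were 2.89%, 3.05%, 1.85% and 1.02%. The ETS word is present in the stretch of ZNF568 printed above, and its reverse complement in that of ZNF274. Members arose by duplication and are not independent carriers of a word.

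By protein, 211 of 246 members (85.8%) matched a KRAB pattern, searched by script in the canonical protein, within the first 200 residues. In MM.1S, 147 of these 211 had a promoter peak (69.7%, 63.2 to 75.5), against 33 of the 35 members without the pattern (94.3%, 81.4 to 98.4). In RPMI8226 the counts were 167 of 211 (79.1%, 73.2 to 84.1) and 32 of 35 (91.4%, 77.6 to 97.04), and these intervals overlap. Nearly all members with no promoter peak in either line (30 of 31) and of those with one in RPMI8226 only (34 of 35) matched the KRAB pattern. The exceptions were ZNF835, with a peak in neither, and ZNF579, with a peak in RPMI8226 only. A member without a match may still carry the domain, since a short pattern can miss it. Where a peak was present in MM.1S, the widest was narrower in members that matched the pattern. The medians were 833 bp (791 to 864) with a match and 1099 bp (869 to 1266) without. In RPMI8226 the medians were 660 bp (623 to 697) and 790 bp (674 to 1006), with overlapping intervals. The intervals overlapped between groups of members with few and many zinc fingers. Members with 1 to 10, 11 to 14 and 15 to 36 finger matches had a promoter peak in 77.6%, 70.9% and 70.7% of cases in MM.1S and in 80%, 80.2% and 82.7% in RPMI8226.

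The 5 members named for the widest promoter peak in MM.1S all lacked the KRAB pattern, and 2 of the 5 in RPMI8226 did. In MM.1S they were ZNF576 (2057 bp), ZNF865 (1763 bp), ZNF787 (1734 bp), ZNF575 (1731 bp) and ZNF580 (1617 bp). The peak of ZNF580 was shared with ZNF581, which also lacked the pattern. In RPMI8226 they were ZNF566 (1440 bp), ZNF524 (1359 bp), ZNF799 (1326 bp), and ZNF345 and ZNF790, which shared a peak of 1300 bp. Of these, ZNF524 and ZNF345 lacked the pattern and ZNF790 matched it. ZNF576 and ZNF787, wide in MM.1S, had widest peaks of only 569 bp and 686 bp in RPMI8226, whereas ZNF566, the widest of RPMI8226, had none in MM.1S.

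Over distinct promoter peaks, those of ZNF genes were wider than those of other genes, with medians of 794 bp (772 to 843) against 712 bp (686 to 739) in MM.1S and 625 bp (599 to 672) against 505.5 bp (492 to 528) in RPMI8226. That order in MM.1S was lost at equal support. At a support of 9 the medians were 840 bp (792 to 884) and 850.5 bp (818 to 877), a difference of -10.5 bp (-65.3 to 44.2). The order was the opposite for the widest peak of each gene, a difference of -79 bp (-140.2 to -23.5). For this measure the medians were 845 bp (797 to 891) and 924 bp (893 to 962). In RPMI8226 the ZNF peaks remained wider at a support of 5, with 660 bp (618 to 692) against 581.5 bp (562 to 606), and were close to other genes for the widest peak of each gene, with 680 bp (650 to 708) against 671.5 bp (640 to 695). Of the 164 ZNF genes with a peak in both lines, 139 had the wider peak in MM.1S (84.8%, 78.5 to 89.5). Other genes did likewise in 89.8% of cases, and the median over all peaks of a list was 536 bp in MM.1S and 362 bp in RPMI8226.

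**Figure D4:**
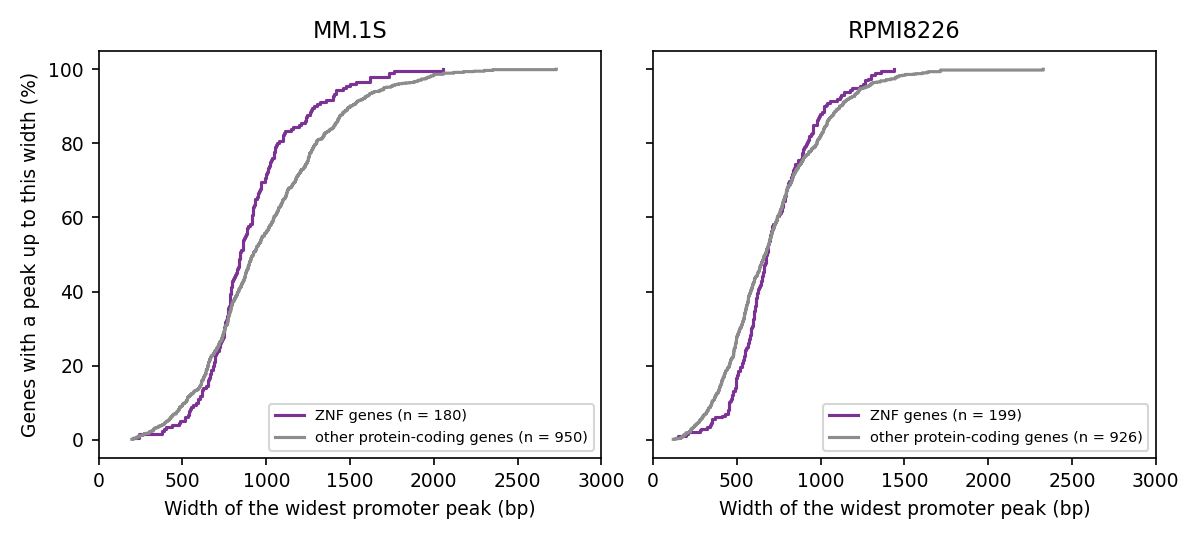
Cumulative share of genes (%) against the width of the widest promoter peak (bp) for genes with a promoter peak, in MM.1S and RPMI8226. The ZNF curve rises more steeply than that of other genes in both lines, with quartiles of 722.5 and 1023.5 bp against 710.25 and 1245.5 bp in MM.1S, and 564 and 868 bp against 491 and 888.75 bp in RPMI8226.

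Sharing between the lists was counted over distinct promoter peaks, with an overlap of 1 bp or more counted as sharing. Of the ZNF promoter peaks, 171 of 197 in MM.1S were shared (86.8%, 81.4 to 90.8), against 1019 of 1418 of other genes (71.9%, 69.5 to 74.1), a difference of 14.9 percentage points (9.04 to 19.6). At a support of 9 the difference was 2.82 points, with 91.8% (86.7 to 95.1) against 89.0% (86.8 to 90.8). In RPMI8226 the share was 79.6% for ZNF promoter peaks (183 of 230, 73.9 to 84.3) and 82.6% for those of other genes (80.4 to 84.5). At a support of 5 it was 81.6% (75.8 to 86.3) and 88.8% (86.7 to 90.6). For 163 of the 164 ZNF genes with a peak in both lines, a peak of one line overlapped a peak of the other.

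Along the chromosome the members were grouped into 12 bins of 5 Mb, of which 7 held at least 10 members and 226 in all. The bins with most members were those at 20 to 25 Mb (32), 50 to 55 Mb (40) and 55 to 60 Mb (59). The share with a promoter peak was lower in MM.1S than in RPMI8226 in 4 of these 7 bins and higher in 3, so the excess of RPMI8226-only genes was not spread evenly. Shifting the bins by 2.5 Mb gave 7 of 9 bins with a lower share in MM.1S.

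Of these 7, the bin at 35 to 40 Mb differed most between the lines. There a peak was called for 17 of 27 ZNF genes in MM.1S (63.0%, 44.2 to 78.5) and 26 of 27 in RPMI8226 (96.3%, 81.7 to 99.3), with 9 genes in RPMI8226 only and 0 in MM.1S only. The 134 other genes of the same bin went the opposite way, with 19 in MM.1S only and 4 in RPMI8226 only. The 9 included ZNF566, ZNF529, ZNF850 and ZNF568, and the 3 consecutive members ZNF569, ZNF570 and ZNF793, whose start sites span chr19:37467444-37506939. ZNF568 and ZNF829, also of the 9, had the same RPMI8226 peak, and ZNF569 and ZNF570 had the same widest peak. The 9 are thus not 9 separate measurements. In ZNF569 the widest peak was 617 bp and the highest support of its promoter peaks was 5. In ZNF793 the peak was 148 bp at a support of 3. ZNF382, whose upstream stretch is printed above, was the only member of this bin with a peak in neither line.

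The neighbouring bin at 40 to 45 Mb showed the reverse, with 23 of 27 ZNF genes in MM.1S (85.2%, 67.5 to 94.1) and 18 of 27 in RPMI8226 (66.7%, 47.8 to 81.4), 5 genes in MM.1S only and 0 in RPMI8226 only. These 5 were ZNF404, ZNF155, ZNF284, ZNF233 and ZNF285. Their other neighbours went the same way, with 13 in MM.1S only and 1 in RPMI8226 only. ZNF155 had a peak of 671 bp, ZNF233 of 750 bp and ZNF285 of 543 bp, each called in 9 of 9 MM.1S libraries, and ZNF284 one of 802 bp in 8. The intervals of the lines overlap in this bin.

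In the bin at 50 to 55 Mb, a promoter peak was called for 23 of 40 ZNF genes in MM.1S (57.5%, 42.2 to 71.5) and 31 of 40 in RPMI8226 (77.5%, 62.5 to 87.7), with 10 in RPMI8226 only and 2 in MM.1S only. Here the other genes went the same way, with 23 in RPMI8226 only and 4 in MM.1S only. The bin also held the longest run of consecutive members with a peak in neither line, formed by ZNF880, ZNF528, ZNF534 and ZNF578, whose start sites lie within 83.6 kb. ZNF808, the next member, had a peak in all libraries of both lines. In the last bin, 55 to 60 Mb, 45 of 59 ZNF genes had a peak in MM.1S (76.3%, 64.03 to 85.3) and 52 of 59 in RPMI8226 (88.1%, 77.5 to 94.1), with 7 in RPMI8226 only and 0 in MM.1S only. ZNF667, ZNF264, ZNF814 and ZNF606 were among these 7. Of the 83 other genes of this bin, 60.2% had a peak in MM.1S and 63.9% in RPMI8226. They leaned the same way, with 6 in RPMI8226 only and 3 in MM.1S only.

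**Figure D5:**
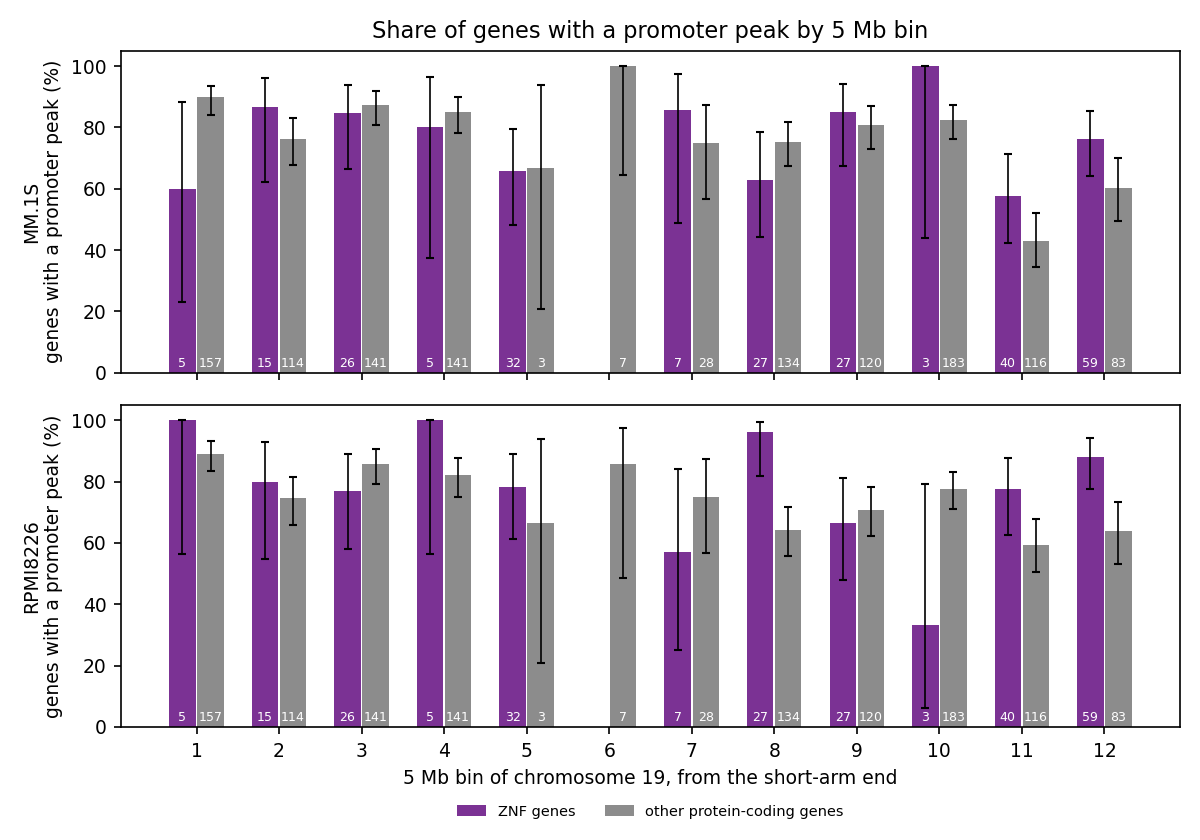
Share of genes with a promoter peak (%) in each 5 Mb bin of chromosome 19 for ZNF genes and other protein-coding genes, in MM.1S (top) and RPMI8226 (bottom), with 95% Wilson intervals and the number of genes at the foot of each bar. In bin 8 (35 to 40 Mb) the ZNF share is 63.0% in MM.1S and 96.3% in RPMI8226, and in bin 9 (40 to 45 Mb) it is 85.2% and 66.7%.

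The cluster at 20 to 25 Mb, which is almost purely ZNF (32 members and 3 other genes) and holds ZNF91, ZNF43, ZNF208 and ZNF257, stood apart in sequence. Its median CpG ratio was 0.512 and a median of 92.0% of the 36-base words around its start sites were unique, the lowest values of the 7 bins. In MM.1S 21 of its 32 members had a promoter peak (65.6%, 48.3 to 79.6) and 15 of its 21 distinct peaks reached a support of 9 (71.4%), with a median width of 638 bp. In RPMI8226 25 of 32 had one (78.1%, 61.2 to 89.0) and 26 of 27 peaks reached a support of 5 (96.3%), with a median width of 605 bp. Whether the repeated sequence lowers the support in MM.1S was not tested.

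The order of the members along the chromosome was read without regard to the other genes between them. Of the 35 members with a peak in RPMI8226 only (14.2% of all members), 19 had a neighbour of the same class. So did 12 of the 31 with a peak in neither (12.6%) and 150 of the 164 with one in both lines (66.7%). For MM.1S only (6.50%), 4 of the 16 did, the pairs ZNF599 with ZNF30 and ZNF541 with ZNF114. The latter lie 697 kb apart with 15 other genes between. A larger class meets itself more often, and no share expected for its size was computed, so these counts alone do not show clustering. The longest runs with a peak in both lines were 13 members from ZNF571 to ZNF283, with 171 other genes between them, and 12 from ZNF136 to ZNF101, with 218. Some neighbours share a promoter window, and the same peak can then place both in a class. No start site of another protein-coding gene lay in the windows of 186 members. Of these 186, 130 had a promoter peak in MM.1S (69.9%, 63.0 to 76.0) and 143 in RPMI8226 (76.9%, 70.3 to 82.4).

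The listed genes of the KRAB silencing pathway had accessible promoters in both lines. All 23 genes of a list of KRAB corepressors and linked silencing factors had a promoter peak in both lines, at the highest support except for CHD3, with 8 of 9 in MM.1S. Of all protein-coding genes, 68.6% had a promoter peak in both lines. At the highest support, 69.2% had one in MM.1S and 66.5% in RPMI8226. TRIM28, itself on chromosome 19, had peaks of 854 bp in MM.1S and 731 bp in RPMI8226. SETDB1, which methylates histone H3, had 1089 bp and 632 bp, and TASOR, a subunit of the HUSH silencing complex, had 1279 bp and 1275 bp. Of the markers of the sorted cells, all 10 plasma cell genes had a promoter peak in both lines, beside the same 68.6% of all protein-coding genes. Of 12 stromal genes, 7 had one in each line (58.3%), beside 76.8% of all protein-coding genes in MM.1S and 71.8% in RPMI8226. COL1A1, FN1 and PDGFRB had it at the highest support in both lines, CXCL12 in 8 of 9 MM.1S and 5 of 5 RPMI8226 libraries, DCN in 8 and 4, and COL1A2 in 6 and 3. TWIST1 had one in 9 of 9 MM.1S libraries and none in RPMI8226, and COL5A1 one in 4 of 5 RPMI8226 libraries and none in MM.1S. COL3A1, THY1, LUM and POSTN had none in either. The study notes some HS5 cells left among the MM cells sorted from CO. The CO libraries were 3 of the 9 of MM.1S and 2 of the 5 of RPMI8226, and the part of HS5 cells in these peaks was not tested. THY1 encodes CD90, the antigen used to leave HS5 cells out of the sort. The 18 chromosome 19 genes with other zinc finger names (ZFP, ZIM, ZIK, ZSCAN and ZBTB), counted among the other genes above, had a promoter peak in 8 cases in MM.1S (44.4%, 24.6 to 66.3) and 11 in RPMI8226 (61.1%, 38.6 to 79.7).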

How the data were processed

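Bowtie2 alignment to hg38 was followed, per the study, by removal of multi-mapping reads and of further reads at 1 position. The authors then called peaks per library with MACS3 and kept as reference peaks those present in at least 3 samples of a line. Tool versions, the peak threshold, any shift of reads for the transposase and how boundaries were joined are not given in the sources used here. The deposited lists carry no header. No source says what the whole number of each deposited peak is. It was not treated as a read count or any other usual unit, and was read as the number of libraries with the peak. Starts were taken as counted from 0, so positions may be off by 1 bp.

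Genes and start sites came from GENCODE release 44. Proteins were translated from canonical coding exons, as a protein table was not used here. Python 3.11.15, pandas 2.3.3 and scipy 1.17.1 were used, and counting steps were tested on simulated lists. Intervals are Wilson for shares and from order statistics for medians. Members, lists and comparisons were chosen with earlier results of these data known. The rule named up to 15 genes of each class lacking a peak in a line, spaced along the chromosome, the 5 widest per line, a list of known roles and the extremes of finger number. Genes named otherwise, the 7 sequences and the motif words were chosen after values were seen.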

Additional observations from a re-analysis of the deposited data

How the results depend on the processing

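The share of ZNF minus other genes with a promoter peak (percentage points) in MM.1S was 2.43 at a window of 1000 bp, 5.20 at 500 bp, 1.63 with peaks of the highest support only, 1.44 against other genes of the bins with at least 10 members, -23.1 with CpG-rich start sites only and -13.7 where every 36-base word was unique. In RPMI8226 it was 11.2 at 1000 bp, 15.04 at 500 bp, -11.5 with CpG-rich start sites and -3.03 with unique words. The difference in median width (bp) in MM.1S was 28.5 at 1000 bp, 22.5 at 500 bp, 33 with canonical starts, 42 with support of at least 6 of 9, and changed sign to -10.5 at the highest support, with an interval that includes 0, and reversed to -79 for the widest peak of each gene. In RPMI8226 it was 78.5 and 8.5 under the last 2 settings. The ZNF median width for the widest peak of each gene was 845 bp in MM.1S and 680 bp in RPMI8226. The share of ZNF peaks shared was 91.8% in MM.1S at the highest support, where its difference from other genes was 2.82. With at least 50% overlap of both peaks the share was 76.6% in MM.1S and 65.7% in RPMI8226, where the difference became 3.57. Bins with a lower share in MM.1S numbered 7 of 9 after a shift by 2.5 Mb. The causes were not tested. The other 172 values moved by less than their interval or 1.5 times. Some of their own intervals excluded 0 where the main one did not. The share difference was 10.3 in RPMI8226 with canonical starts (4.21 to 15.7) and 10.2 with starts of protein-coding transcripts (4.24 to 15.3). In MM.1S it was -9.72 at 5000 bp (-15.9 to -4.15). The difference in sharing in RPMI8226 was -8.27 at 500 bp (-14.5 to -2.93). CpG-rich starts, unique words and isolated windows were chosen after seeing the data. No paired analysis was possible because the lists pool all libraries of a line, and no library could be left out. The lists give no depth, so a promoter without a peak may be one not detectable at the depth of its libraries.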
